A study of Danio rerio with 2 samples.

Results

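Coarse cluster 4 is a group of npas4l-reporter cells of the zebrafish tail. It fell almost wholly into fine clusters 3, 10 and 11 of the authors' finer clustering. Its members were taken from the authors' deposited cell table as all cells with coarse number 4 and fine number 3, 10 or 11, which gave 1049 of 10469 cells. Of these, 745 cells belonged to fine cluster 3, 167 to fine cluster 10 and 137 to fine cluster 11. A single further cell of coarse cluster 4 carried fine number 9 and was left out. Fine numbers 3, 10 and 11 occurred in no other coarse cluster. The sources used here tie none of these numbers to a cell type and no gene values were analysed here, so the clusters keep their numbers and the label could not be checked against marker genes.

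The cells came from 2 droplet libraries of Danio rerio embryos at 20 hours post fertilisation. The heterozygous library was made from embryos with the bns423 allele of npas4l and a wild-type copy (npas4lbns423/+), and the mutant library from embryos with the bns423 allele and a second mutant allele, bns297 (npas4lbns423/bns297). Both genotypes therefore carried bns423. Tissue posterior to the front of the yolk extension was taken from about 150 embryos, dissociated and sorted by GFP fluorescence, with DAPI marking dead cells. Embryos were pooled and each genotype had 1 library, so cells are not replicates, no test was made, and every interval covers counting error over cells only. A sorted share also cannot tell fewer cells of a type from weaker reporter fluorescence.

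Npas4l, encoded at the cloche locus, is a bHLH-PAS transcription factor that stands near the top of the programme by which zebrafish mesoderm forms endothelial and blood cells. Embryos that lack it lose most of both lineages, and a reporter of the locus marks cells that have switched it on whether or not the protein works. RNA velocity compares unspliced, newly made transcripts with spliced ones to infer in which direction a cell's expression is moving. From it come a pseudotime, which orders cells, a root cell score, which is high where inferred paths begin, and an end point score, which is high where they finish.

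The heterozygous library supplied 1026 of the 1049 cells. They made up 19.7% of its 5207 cells (95% exact interval 18.6% to 20.8%). The mutant library supplied 23 cells, 0.437% of its 5262 (0.277% to 0.655%). The heterozygous share was 45.1 times the mutant share, with bounds of 28.4 and 75.1. By fine cluster, the ratio was 52.8 in fine cluster 3 (29.4 to 103), 41.2 in fine cluster 10 (13.7 to 176) and 26.7 in fine cluster 11 (9.59 to 97.2). These bounds overlapped and rest on 14, 4 and 5 mutant cells. Whether the 3 ratios differ was not tested. None of the 5 barcodes that occurred in both libraries belonged to a member.

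Within the heterozygous members, fine cluster 3 was the bulk with 731 cells or 71.2% (68.4% to 74.0%). Fine cluster 10 held 163 cells or 15.9% (13.7% to 18.3%), and fine cluster 11 held 132 cells or 12.9% (10.9% to 15.1%). Together the heterozygous members held 14683327 UMIs (unique molecular identifiers, which count captured transcripts). This was 12.8% of that library's UMIs, below their 19.7% of its cells.

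Fine cluster 11 was the deepest of the 3, though not deep for its library. The heterozygous cells of fine cluster 11 had a median of 17851 UMIs (17060 to 18738), with quartiles of 15248 and 20735. Over all heterozygous cells the median was 20744, and 0 of the 132 cells lay above the 95th percentile of 41247. Fine cluster 3 had 13227 (12948 to 13626; quartiles 11292 and 15767), and fine cluster 10 had 12512 (12195 to 12962; quartiles 11050 and 13843). The median of fine cluster 11 was thus 1.35 times that of fine cluster 3 and 1.43 times that of fine cluster 10. A randomly drawn cell of fine cluster 11 had more UMIs than one of fine cluster 3 in 75.4% of pairs and more than one of fine cluster 10 in 84.5%. Fine clusters 10 and 3 lay close together, with a difference of medians of -715 UMIs and bounds of -1431 and 14. Depth was most uniform in fine cluster 10, where 5% of cells were below 8678 and 5% above 16624 UMIs. In fine cluster 3 these limits were 7652 and 22623.

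**Figure D1:**
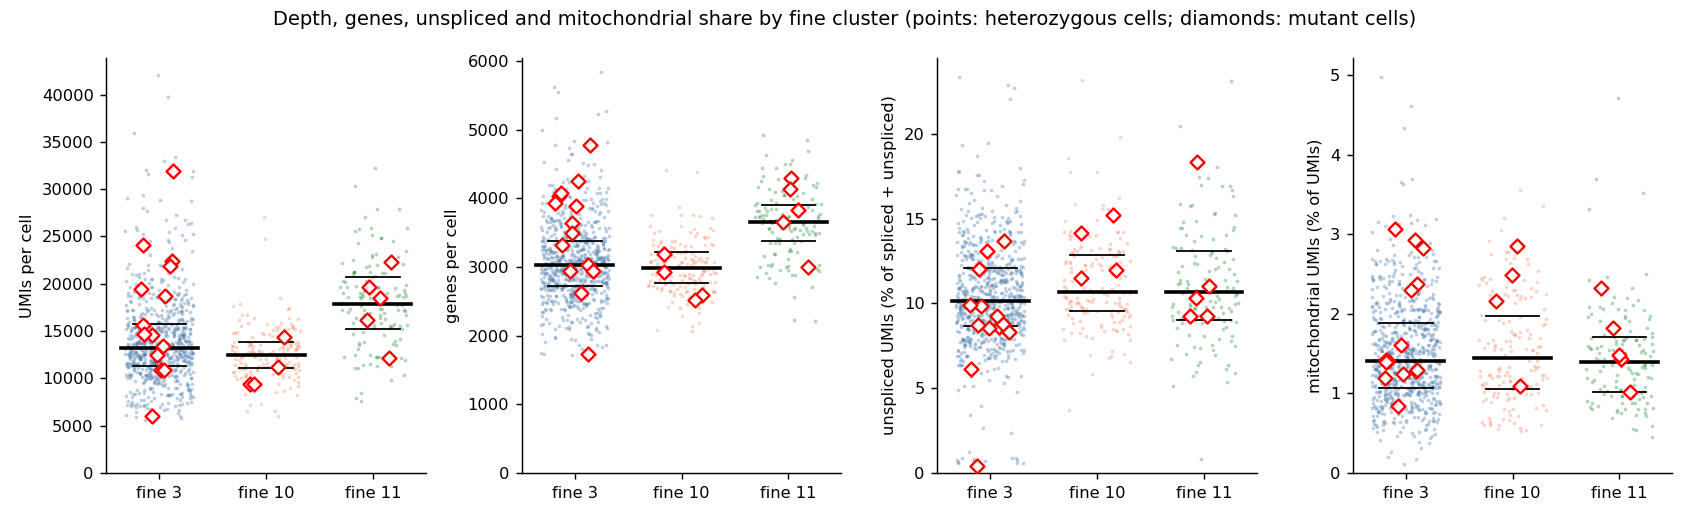
UMIs, genes, unspliced percent and mitochondrial percent per cell in fine clusters 3, 10 and 11 (731, 163 and 132 heterozygous cells as points; 14, 4 and 5 mutant cells as diamonds). Thick bars are heterozygous medians and thin bars quartiles. Fine cluster 11 stands higher in UMIs (median 17851) and genes (3659), while the unspliced medians lie between 10.1% and 10.7%.

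High depth can mark droplets with 2 cells. The files give no doublet call, and the part of doublets in the depth of fine cluster 11 was not tested.

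Genes per cell followed depth. The median was 3659 genes (3574 to 3725) in fine cluster 11, 3037 (2981 to 3078) in fine cluster 3 and 2991 (2900 to 3070) in fine cluster 10. Without the gene table, cells could not be thinned to a common depth, so cells of like depth were compared instead. Between 12000 and 18000 UMIs, 55 cells of fine cluster 11 had a median of 3498 genes (3381 to 3573), 373 of fine cluster 3 had 3129 (3103 to 3153) and 96 of fine cluster 10 had 3141 (3083 to 3218). The cells of fine cluster 11 in this window were themselves deeper, with a median of 15804 UMIs against 14027 and 13440. In 5 bins of UMIs, cut at the quintiles of the heterozygous members, the mean difference between fine clusters 11 and 3 came down from 622 to 111 genes. Fine cluster 11 had more genes in 4 of these 5 bins, in which it held 5, 16, 8 and 30 cells. With 30 cells, between 14471 and 17264 UMIs, the medians were 3525 against 3342 genes at 16208.5 against 15457.5 UMIs. Its 5 cells in the shallowest bin had 2569 against 2469 genes at 8429 against 9343 UMIs. In the deepest bin, a wide one from 17264 to 42059 UMIs, it had fewer genes, 3857 in 73 cells against 3919 in 126 cells.

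**Figure D2:**
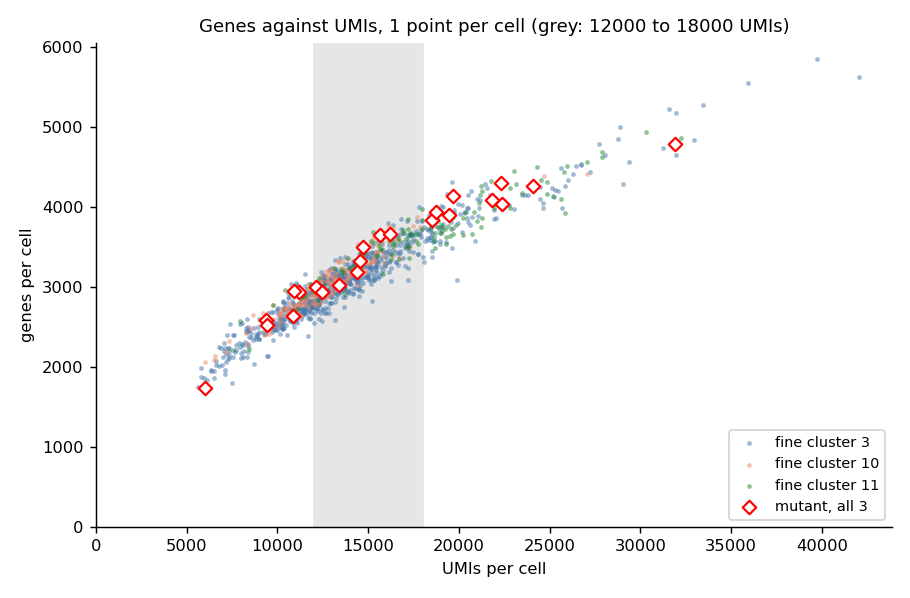
Genes against UMIs per cell, with 1 point for each heterozygous member coloured by fine cluster and diamonds for the 23 mutant members. The grey band spans 12000 to 18000 UMIs. Cells of all 3 fine clusters lie along the same rising band, and fine cluster 11 lies mostly in its upper part.

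Over all depths the unspliced share differed little between the 3. The median was 10.1% (9.93% to 10.4%) in fine cluster 3, 10.7% (10.2% to 11.6%) in fine cluster 10 and 10.7% (9.97% to 11.2%) in fine cluster 11. The differences from fine cluster 3 were 0.547 percentage points for fine cluster 10 (bounds -0.161 and 1.67) and 0.549 for fine cluster 11 (-0.411 and 1.29). Both sets of bounds spanned 0. They combine opposite interval ends and are wide, so this does not show that there was no difference. A cell of fine cluster 10 had the higher share than one of fine cluster 3 in 58.4% of pairs. For fine cluster 11 this was 55.1%. Between 12000 and 18000 UMIs the medians were 9.93% (9.70% to 10.1%), 10.7% (10.2% to 12.1%) and 11.7% (10.03% to 12.9%). At this depth fine cluster 10 exceeded fine cluster 3 by 0.817 percentage points, with bounds of 0.0198 and 2.41 that exclude 0, and it was the higher of the pair in all 5 bins of UMIs. In the deepest bin this rested on 7 cells, at 10.32% against 10.25%. For fine cluster 11 the bounds between 12000 and 18000 UMIs still spanned 0 (-0.112 and 3.24), and the bins disagreed. Its median was below that of fine cluster 3 in the shallowest bin (8.85% in 5 cells against 11.03%). The same held in the deepest bin (10.08% in 73 cells against 10.25%), while it was higher in the bins between. The mitochondrial percent had medians of 1.41%, 1.44% and 1.39% for fine clusters 3, 10 and 11 and overlapping intervals.

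Set beside other heterozygous cells, the members had a higher unspliced share than coarse cluster 1, the other cluster held mainly by the heterozygous library. The medians were 10.3% (10.1% to 10.5%) in the members and 5.53% (5.45% to 5.60%) in coarse cluster 1. Coarse clusters 5 and 7 were chosen for comparison because their unspliced share was like that of the members, so this likeness is no finding. Their medians were 11.02% (10.6% to 11.5%) and 10.4% (9.68% to 10.8%). At 12000 to 18000 UMIs the contrast with coarse cluster 1 was still there, at 10.2% (9.99% to 10.4%) in 524 members against 6.26% (5.89% to 6.63%) in 275 cells.

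A small set of members carried almost no unspliced transcripts. Of the 731 heterozygous cells of fine cluster 3, 16 had under 3% unspliced UMIs, and 13 of these had under 1%. Fine cluster 11 had 1 such cell, at 0.832%, and fine cluster 10 had 0 of 163 (upper limit 2.24%). The 16 cells of fine cluster 3 were shallow, with a median of 8559 UMIs (6519 to 10280) and 2123 genes (1836 to 2473). They were not peculiar to this cluster, since 59 of all 5207 heterozygous cells (1.13%, 0.864% to 1.46%) lay under 1%, against 14 of the 1026 heterozygous members (1.36%, 0.748% to 2.28%).

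In velocity pseudotime, which runs from 0 to 1 over all cells, most heterozygous members lay in a stretch that few other cells occupied. Of the 998 heterozygous cells with a pseudotime of at least 0.05 and below 0.4, 977 were members (97.9%, 96.8% to 98.7%), and 11 belonged to coarse cluster 1. Coarse cluster 1 came before, with a heterozygous median of 0.0117, and coarse clusters 5 and 7 came after, at 0.501 and 0.544. The stretch held 19.2% of the heterozygous library (18.1% to 20.3%). Only 38 mutant cells lay there, 0.722% of their library (0.512% to 0.990%). Of these, 20 were members, 10 belonged to coarse cluster 6 and 5 to coarse cluster 1. The latest members lay among many other cells. From 0.4 to 0.5, members were 44 of 632 heterozygous cells (6.96%, 5.10% to 9.23%), while coarse clusters 2, 3 and 5 held 341, 120 and 116. These limits were set after the values were seen and largely follow the clusters, so the counts are a description.

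The fine clusters took different positions along this stretch. Fine cluster 3 had a median pseudotime of 0.284 (0.283 to 0.285), with a quartile range of 0.267 to 0.293. Fine cluster 11 lay slightly later, at 0.294 (0.292 to 0.297; quartiles 0.287 and 0.302). Fine cluster 10 was the latest and the most spread between its quartiles, at 0.353 (0.345 to 0.367; quartiles 0.329 and 0.388). A cell of fine cluster 10 had the higher pseudotime than one of fine cluster 3 in 95.3% of pairs, and a cell of fine cluster 11 did so in 70.3%. Fine cluster 11 exceeded fine cluster 10 in 8.22% of pairs. Earlier and later refer throughout to the pseudotime value alone, since the root cell and end point scores gave the opposite direction within the fine clusters.

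**Figure D3:**
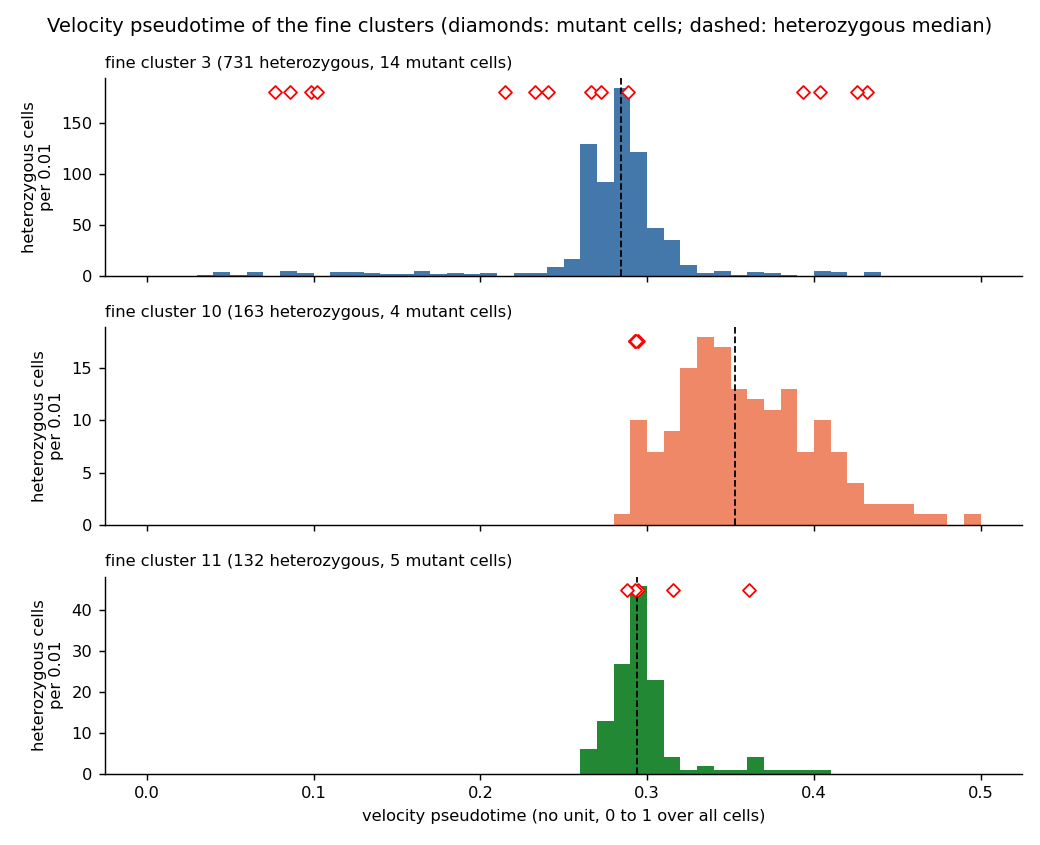
Number of heterozygous cells per 0.01 of velocity pseudotime in fine clusters 3, 10 and 11, with the heterozygous median as a dashed line and each mutant cell as a diamond. Fine cluster 10 lies to the right of the others (median 0.353 against 0.284 and 0.294). The 14 mutant cells of fine cluster 3 are spread from 0.0771 to 0.432, and the 4 of fine cluster 10 sit near 0.293.

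By pseudotime band, all 63 heterozygous members below 0.25 belonged to fine cluster 3. Between 0.25 and 0.3, where 648 members lay, 84.1% were from fine cluster 3, 14.2% from fine cluster 11 and 1.70% from fine cluster 10. From 0.3 to 0.35 fine cluster 10 made up 33.3% of 198 members, and from 0.35 to 0.4 it made up 76.7% of 73. The last 5 members, at 0.45 to 0.5, were all of fine cluster 10. Fine cluster 3 thus held both the earliest members and, with 22 cells at 0.35 or more, a small late tail.

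Tails of fine cluster 3 differed from its body in the velocity scores. The 45 cells below 0.2 had a median root cell score of 0.229 (0.206 to 0.252), and the 22 cells at 0.35 or more had 0.590 (0.516 to 0.762). The 664 cells between them had 0.00392 (0.00355 to 0.00432). End point scores went the other way, with medians of 0.0291, 0.00773 and 0.0622 in the early, late and middle cells. The early cells also had more UMIs than the middle ones, 15837 (14721 to 18411) against 13107 (12802 to 13465), and a lower unspliced share, 8.90% (7.81% to 9.74%) against 10.2% (10.0% to 10.5%). Pseudotime and both scores come from the same velocity fit, so their relations are not independent measurements.

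Root cell scores were low in most members but not evenly so. The heterozygous medians were 0.00448 (0.00397 to 0.00522) in fine cluster 3, 0.0146 (0.00913 to 0.0258) in fine cluster 11 and 0.0660 (0.0516 to 0.0849) in fine cluster 10. Scores below 0.01 were given to 59.8% of fine cluster 3, 43.2% of fine cluster 11 and 9.82% of fine cluster 10. The order at the high end was another one. Scores of 0.9 or more were reached by 6 of 132 cells in fine cluster 11 (4.55%, 1.69% to 9.63%), 2 of 731 in fine cluster 3 (0.274%, 0.0332% to 0.985%) and 0 of 163 in fine cluster 10 (upper limit 2.24%). By the mean, fine cluster 11 was accordingly the highest of the 3, at 0.177, followed by fine cluster 10 at 0.118 and fine cluster 3 at 0.0706. High root cell scores also occurred outside the members. The heterozygous 95th percentile was 0.894 in fine cluster 11, 1 in coarse cluster 7, 0.733 in coarse cluster 1 and 0.202 in coarse cluster 5. Over all heterozygous cells it was 0.625, and their share at 0.9 or more was not counted.

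End point scores set fine cluster 10 apart from fine clusters 3 and 11. Its median was 0.0119 (0.0107 to 0.0137) and its highest cell reached 0.0542. The heterozygous medians of coarse clusters 5 and 7 were lower still, at 0.00370 and 0.000688, while that of coarse cluster 1 was 0.0363. Fine cluster 3 had a median of 0.0588 (0.0530 to 0.0632) and a highest value of 0.553. Fine cluster 11 had 0.105 (0.0799 to 0.137) and 0.604. A cell of fine cluster 11 scored higher than one of fine cluster 10 in 90.7% of pairs. No heterozygous member reached 0.9 (0 of 1026, upper limit 0.359%). At a limit of 0.5, fine cluster 11 had 17 cells (12.9%, 7.68% to 19.8%) and fine cluster 3 had 10 (1.37%, 0.658% to 2.50%). Over all heterozygous cells the highest end point score was 1. The 95th percentile was 0.307 over all heterozygous cells and 0.366 in the heterozygous members. Shares of all heterozygous cells at these 2 limits were not counted.

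**Figure D4:**
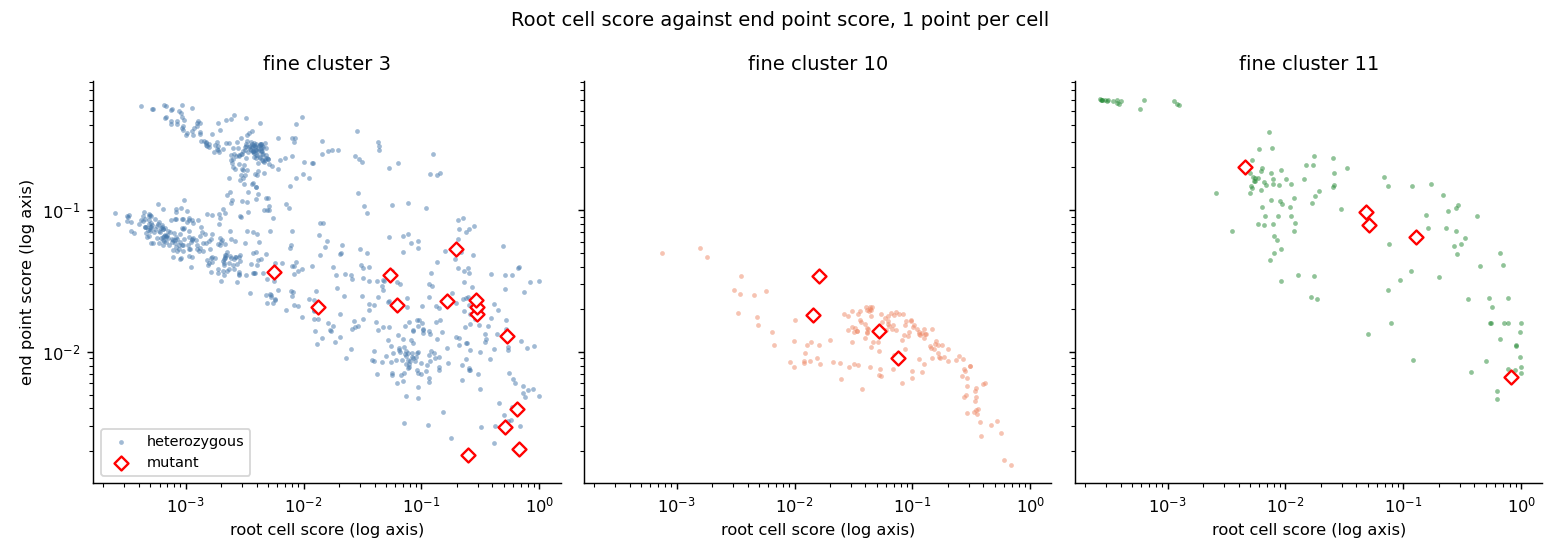
Root cell score against end point score on log axes, 1 point per heterozygous cell and a diamond per mutant cell, in fine clusters 3, 10 and 11. Fine cluster 3 splits at low root scores into a set with end point scores of 0.2 or more (151 cells) and one below 0.1 (243 cells), and 17 cells of fine cluster 11 form a separate set at 0.519 to 0.604.

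Both fine cluster 3 and fine cluster 11 were divided in this plane. Among the 437 heterozygous cells of fine cluster 3 with a root cell score below 0.01, 151 had an end point score of 0.2 or more, 43 lay between 0.1 and 0.2, and 243 lay below 0.1. The 151 cells had the earlier pseudotime, 0.265 (0.264 to 0.266) against 0.286 (0.285 to 0.287) in the 243. Their unspliced shares were alike, 10.4% (9.87% to 11.01%) and 10.5% (10.2% to 10.9%), and so were their genes, 3051 (2954 to 3140) and 2972 (2918 to 3046). The authors' fine clustering kept these cells under 1 number.

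In fine cluster 11, the 17 cells with an end point score of 0.5 or more lay between 0.519 and 0.604, and the next cell below them lay at 0.353. Their median pseudotime was 0.271 (0.269 to 0.274). Another 21 cells of fine cluster 11 had a root cell score of 0.5 or more, with a median pseudotime of 0.330 (0.314 to 0.368) and end point scores of at most 0.0497. Depth did not separate them, with medians of 19048 UMIs (13483 to 24857) in the former and 17971 (16693 to 21272) in the latter. The unspliced share was 9.55% (9.03% to 12.1%) and 12.4% (10.3% to 14.5%), with overlapping intervals. The score limits in these comparisons were chosen after the values were seen.

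Across the 163 heterozygous cells of fine cluster 10 the root cell score rose with pseudotime (Spearman's rho 0.90, a description over cells of 1 library). The 11 cells below a pseudotime of 0.3 had a median root cell score of 0.00350. The 122 cells from 0.3 to 0.4 had 0.0546, and the 30 cells at 0.4 or more had 0.335. The median end point score over the same steps was 0.0258, 0.0136 and 0.00512. Median self-transition scores took no steady course over them, at 0.306, 0.247 and 0.398. Median UMIs over these steps were 13332 (10137 to 17855), 12407 (11998 to 12826) and 12928 (11653 to 13390). Across the 163 cells, UMIs had a rho of -0.22 with both pseudotime and root cell score, and genes had -0.24 with both. The rho of root cell score with pseudotime was 0.85 in fine cluster 11. In fine cluster 3 it was 0.25, where both pseudotime tails had high root scores. The rho of end point score with pseudotime was -0.68 in fine cluster 3, -0.33 in fine cluster 10 and -0.73 in fine cluster 11. Within each fine cluster the scores thus ran against the pseudotime order, since root cell scores should be high where paths begin and end point scores where they finish. The cause was not tested.

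The self-transition score, which as its name says rates a cell's tendency to stay in its own state, was highest in fine cluster 3, with a median of 0.383 (0.373 to 0.389). It was 0.310 (0.286 to 0.337) in fine cluster 11 and 0.283 (0.247 to 0.316) in fine cluster 10, whose intervals overlapped.

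The 14 mutant cells of fine cluster 3 did not sit where most heterozygous cells of that cluster did. Their pseudotime ranged from 0.0771 to 0.432 with a median of 0.253. Of the 14, 4 lay below and 4 above the range that holds the middle 90% of the heterozygous cells, 0.165 to 0.322, and 2 lay between the heterozygous quartiles. Root cell scores ranged from 0.00557 to 0.671 with a median of 0.269, and all 14 exceeded the heterozygous median of 0.00448. End point scores ranged from 0.00188 to 0.0536 with a median of 0.0207, and all 14 were below the heterozygous median of 0.0588. The self-transition scores, 0.160 to 0.374, were likewise all below the heterozygous median of 0.383.

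Read by pseudotime, the 4 earliest mutant cells, at 0.0771 to 0.102, had root cell scores of 0.288 to 0.529. Those at 0.393 to 0.432 had root cell scores of 0.249 to 0.671 and end point scores of at most 0.00396, and 2 of these were under the lowest heterozygous value of 0.00228. The 6 in between, at 0.215 to 0.288, had root cell scores of 0.00557 to 0.197. Heterozygous cells of the same cluster took these positions too. Below 0.2 the heterozygous share was 6.16% (4.53% to 8.15%), while the 4 mutant cells were 28.6% of 14 (8.39% to 58.1%). At 0.35 or more the heterozygous share was 3.01% (1.90% to 4.52%), and the mutant share was again 28.6%. These limits were chosen after the values were seen.

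Depth and transcript make-up overlapped broadly between the genotypes in fine cluster 3. Mutant cells ranged from 6004 to 31894 UMIs with a median of 15173 (10894 to 22350), against 13227 in heterozygous cells. Unspliced shares ranged from 0.419% to 13.7% with a median of 8.74% (8.31% to 12.1%), and 11 of the 14 were below the heterozygous median of 10.1%. The cell with 0.419% was also the shallowest, had 1735 genes and was 1 of the late cells, at a pseudotime of 0.393. Mitochondrial percent had a median of 1.41% in both libraries, with 7 mutant cells on each side. The 3 mutant cells above the heterozygous 95th percentile of 2.66% had 2.83% to 3.06%. All of them were among the 4 earliest in pseudotime. Whether cell quality bears on the positions of these cells was not tested. Over all cells the mutant library had the higher mitochondrial percent, 1.73% against 0.994%.

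Mutant cells of fine cluster 10 were close together at the early edge of that cluster. The 4 had pseudotimes between 0.2926 and 0.2946, below 161 of the 163 heterozygous cells. Their root cell scores, from 0.0144 to 0.0751, and end point scores, from 0.00900 to 0.0341, lay within the heterozygous range. All 4 had unspliced shares, 11.5% to 15.2%, above the heterozygous median of 10.7%, with 9375 to 14363 UMIs. Their mitochondrial percent ranged from 1.09% to 2.85% with a median of 2.32%, against 1.44% in heterozygous cells. Of the 4, 3 were above that heterozygous median and 1 above the 95th percentile of 2.70%. Whether cell quality bears on the values of these 4 cells was not tested.

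The 5 mutant cells of fine cluster 11 fell among the heterozygous ones. Their pseudotimes ran from 0.288 to 0.361 with a median of 0.295, against 0.294 in heterozygous cells, and 3 of them lay between the heterozygous quartiles. UMIs ranged from 12124 to 22309 with a median of 18497. Root cell scores ranged from 0.00457 to 0.812, and none of the 5 had an end point score above 0.202. Whether the displacement of mutant cells differs between the fine clusters was not tested, with 4 and 5 cells in the smaller ones.

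Over all 3 fine clusters, the 23 mutant members had a median end point score of 0.0208 (0.0129 to 0.0350), against 0.0477 (0.0422 to 0.0534) in the 1026 heterozygous members. The median root cell score was 0.128 (0.0507 to 0.294) against 0.0105 (0.00798 to 0.0142), and the median self-transition score was 0.268 (0.234 to 0.293) against 0.366 (0.359 to 0.373). Fine cluster 3 supplied 14 of the 23 mutant cells. In fine cluster 10 the mutant and heterozygous medians went the other way for root cell score, at 0.0343 and 0.0660. They also did so for end point score, at 0.0163 and 0.0119, and were alike for self-transition, at 0.285 and 0.283. Medians of fine cluster 11 went the same way as those of the pooled members. So did those of coarse cluster 1, with mutant and heterozygous medians of 0.0976 and 0.0112 for root cell score. They were 0.00493 and 0.0363 for end point score, and 0.341 and 0.367 for self-transition. Over all cells of each library the directions were the same, at 0.0366 and 0.0128, 0.000332 and 0.0285, and 0.333 and 0.368. These library medians compare unlike mixes of clusters. Coarse cluster 1 was 3060 of 5207 heterozygous but 147 of 5262 mutant cells. In coarse cluster 5 the medians differed little, at 0.115 and 0.112, 0.00360 and 0.00370, and 0.468 and 0.479. In coarse cluster 7 the medians of all 3 scores went the other way. The shift was thus shared with coarse cluster 1 and not particular to the members. Over all members the intervals lay apart in the 3 scores. Between 12000 and 18000 UMIs, with 8 mutant cells, they overlapped for the end point score, at 0.0207 (0.00188 to 0.0976) and 0.0362 (0.0270 to 0.0461), and for the root cell score, at 0.147 (0.0133 to 0.298) and 0.0135 (0.00869 to 0.0193). Pseudotime did not separate the genotypes by its median, at 0.292 (0.241 to 0.295) and 0.289 (0.288 to 0.290), although the mutant cells were the more spread, with quartiles of 0.237 and 0.305 against 0.274 and 0.306.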

How the data were processed

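Droplet RNA sequencing of sorted cells was deposited as 2 tables with 1 row per cell. STARsolo and Scanpy were used with build danRer11, per the submitters' processing notes. Not given in the sources used here are versions, annotation, cell filters, doublet handling and the settings of clustering and velocity. Per the file headers, the authors deposited genes per cell as counts, total UMIs as a natural log after adding 1, mitochondrial values as percent, spliced and unspliced sizes (whole numbers, read here as UMIs), cluster numbers, and velocity scores. Libraries were taken from the genotype written in each row.

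Here the log totals were inverted and rounded (within 0.0614 of whole numbers), and the unspliced percent was taken over spliced plus unspliced UMIs, whose sum came to 104% of a member's deposited total (median). The shallowest cell had 5267 UMIs. The libraries held 115131011 and 84294688 UMIs, heterozygous first. Shares have exact (Clopper-Pearson) 95% intervals and medians exact 95% intervals from order statistics. Bounds of ratios and differences combine opposite interval ends. Groups under 6 cells have no interval for the median. Named items were the fine clusters 3, 10 and 11, coarse cluster 4 and, for comparison, coarse clusters 1, 5 and 7. Members, lists and limits were chosen with earlier results of these data known. Python 3.11.15, pandas 2.3.3 and scipy 1.17.1 were used. Alternatives were the other table, the whole of coarse cluster 4, limits on depth and mitochondrial percent, bins of UMIs, both libraries together, means, other denominators and another score limit.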

Additional observations from a re-analysis of the deposited data

How the results depend on the processing

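All 10469 cells had the same cluster, gene, mitochondrial and UMI values in both deposited tables. The first table could therefore only return the same shares and is no check on them. Adding the 1 cell with fine number 9 moved no share beyond its interval. With at least 14240 UMIs per cell, the heterozygous members were 67.2% fine cluster 3, 8.67% fine cluster 10 and 24.1% fine cluster 11. Ratios of mutant to heterozygous share, 0.0222 for all members and 0.0190 for fine cluster 3 as reported, became 0.0489 and 0.0467 with that minimum, 0.0360 and 0.0361 with at most 1.39% mitochondrial UMIs, and 0.00941 and 0.00804 with coarse cluster 1 out of the total, by the change of denominator. Between 12000 and 18000 UMIs, fine cluster 11 exceeded fine cluster 3 by 1777 UMIs, 369 genes and 1.80 percentage points unspliced, and fine cluster 10 by 2364.5 UMIs and 357 genes. In bins of UMIs it exceeded fine cluster 3 by 57.7 UMIs, 111 genes and 0.0281 in root cell score, and fine cluster 10 by 418 UMIs and 79.7 genes, with a difference in root cell score of -0.0250. These UMI differences are means over bins in which the sign varied. In the shallowest bin fine cluster 11 had a median of 8429 UMIs, against 9343 in fine cluster 3 and 10084 in fine cluster 10. In the deepest bin it had 20205, against 20022 and 17855. Both the bins and the window thus bring depth together only in part. The cause of the shift in root cell score was not tested. With means, the difference in root cell score between fine clusters 11 and 10 reversed, from -0.0514 to 0.0589 (95th percentiles 0.894 and 0.377). Means also moved fine cluster 11 minus 3 to 0.0220 in pseudotime and 0.107 in root cell score, and the end point difference to -0.0964 for fine cluster 10 minus 3 and 0.147 for 11 minus 10. For mutant minus heterozygous members means gave -0.0655 in end point score and -0.0569 in self-transition (cause not tested). The other 175 recomputed values of these comparisons stayed within their intervals. They include all values from the first table and every value with the 5% deepest cells removed, so part of this was fixed beforehand. The depth limit was 41247 UMIs in the heterozygous library. It took out 1 of 731, 0 of 163 and 0 of 132 cells of fine clusters 3, 10 and 11. Some of the 175 values no longer had bounds on 1 side of 0. For mutant minus heterozygous members this held for the end point score between 12000 and 18000 UMIs (-0.0443 to 0.0706) and at the mitochondrial maximum (-0.0547 to 0.163), and for the root cell score in the same settings (-0.00599 to 0.289 and -0.0140 to 0.662). In that window it also held for the end point score of fine cluster 11 minus 3 (-0.0250 to 0.0817) and the root cell score of 11 minus 10 (-0.0619 to 0.0323). Bounds came to exclude 0 for UMIs of fine cluster 10 minus 3 over both libraries (-1552 to -108) and for the unspliced percent of that pair in the window. Over smaller results 37 stayed and 8 moved, 5 of them by lowering the score limit to 0.5. Among the 37, the self-transition score of fine cluster 11 minus 3 had bounds that spanned 0 between 12000 and 18000 UMIs (-0.116 to 0.0323). No paired analysis was possible because each genotype had 1 library, and none could be left out. Counting error limits the mutant values, which rest on 14, 4 and 5 cells.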

Other observations

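The 1 heterozygous cell of coarse cluster 4 that carried fine number 9 had 23397 UMIs, 3997 genes, 6.09% unspliced UMIs, a pseudotime of 0.392 and a root cell score of 1. Its unspliced share was below the lower quartile of each of the 3 fine clusters of coarse cluster 4, the lowest of which was 8.70%. Of the 1026 heterozygous members, 8 had a root cell score of 0.9 or more (0.780%, 0.337% to 1.53%). The 95th percentile of this score was 0.515 in the heterozygous members and 0.625 over all heterozygous cells.

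Mitochondrial and unspliced percent had a Spearman's rho of 0.27 over 731 heterozygous cells of fine cluster 3, 0.41 over 163 of fine cluster 10 and 0.15 over 132 of fine cluster 11. UMIs and unspliced percent had a rho of -0.27 in fine cluster 11, against -0.06 in fine cluster 3 and -0.05 in fine cluster 10. These are descriptions over cells of 1 library, which share lane and sort, and both percents share the UMIs of the cell.

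Strongly unspliced cells were also counted. More than 15% unspliced UMIs occurred in 16 of 132 heterozygous cells of fine cluster 11 (12.1%, 7.09% to 18.9%). The counts were 10 of 163 in fine cluster 10 (6.13%, 2.98% to 10.99%) and 47 of 731 in fine cluster 3 (6.43%, 4.76% to 8.46%), with overlapping intervals. Such cells were not counted over the whole library. The heterozygous 95th percentile of the unspliced share was 16.9% in fine cluster 11, 17.0% in coarse cluster 5 and 16.5% in coarse cluster 7. It was 9.41% in coarse cluster 1 and 14.0% over all heterozygous cells.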
